A study of Homo sapiens with 20 samples.

Results

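Microexons are exons so short that they add only a few residues to a protein. Every exon event with a length from 1 to 27 bases was taken from the 7 tables of alternative splicing that the authors deposited. These made 398 entries for 235 distinct microexons in 224 genes. The tables hold 14593 distinct exons in all, so microexons were 1.61% of them. The values behind each entry are the authors' group means of PSI, the percent of a gene's transcripts that include the exon.

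Most microexons keep the reading frame and are best known from neurons, where the SR-related protein SRRM4 binds close upstream of them and promotes their inclusion. In other cells PTBP1 represses many of them, and the protein versions without the microexon prevail. Their products act in vesicle traffic, the cytoskeleton, cell adhesion and signalling, and a microexon often adds or alters a surface that meets a partner protein. An exon of this size leaves little room for the enhancer sequences that SR proteins bind in longer exons.

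RNA was sequenced from HEK293T, a human embryonic kidney line that carries viral oncogenes, to look for a link between the mitotic kinase Aurora-A and regulators of splicing. Cells received the Aurora-A inhibitor MLN8237 for 24 hours and were set against the solvent DMSO. In other cells siRNAs against SRSF1, SRSF2, SRSF7 or SF3B5 acted for 48 hours and were set against the non-targeting control siNT1, while siRNAs against SRSF3 or RBM39 were set against the control siNT2. Each of the 10 groups had 2 samples, and nothing in the labels says that these came from separate cultures. The labels place siNT1 and siNT2, each with its depletions, in different sets, and DMSO with MLN8237 in a further set. SRSF1, SRSF2, SRSF3 and SRSF7 are SR proteins, RBM39 is an SR-like protein related to the large subunit of U2AF, and SF3B5 is a small subunit of the SF3b complex that holds the branch point. With only group means at hand, no PSI value below carries an SD, the read depth behind it is unknown, and no single change could be tested. In bulk RNA a change in all cells and a change in some of them cannot be told apart. A two-sided exact permutation test of 2 samples against 2 gives no p below 0.333. The depletions themselves were not checked here, and neither was the amount of any transcript.

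Of the 235 microexons, 185 matched exactly 1 annotated exon of their length in GENCODE release 29, on the GRCh38 build. Of these, 170 lay in coding sequence, 7 were untranslated and 8 lay in non-coding transcripts. The sequences shown belong to coding microexons that stood in 3 or more tables or led a table. They are printed because the results turn on them, for opposite changes in different tables, for the largest change in 1 table or, for TEAD1, for changes in 6 tables. Each is written 5′ to 3′ on the gene's strand, with the microexon in capitals and 15 bases of each neighbouring exon in lower case.
TEAD1: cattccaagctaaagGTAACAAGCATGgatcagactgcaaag
SNX14: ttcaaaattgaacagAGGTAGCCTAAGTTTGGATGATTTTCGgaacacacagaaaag
AFDN: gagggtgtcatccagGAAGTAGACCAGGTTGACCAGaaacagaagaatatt
MON2: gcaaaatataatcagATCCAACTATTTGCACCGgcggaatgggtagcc
KIF3A: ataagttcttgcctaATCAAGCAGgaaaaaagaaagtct
RAPGEF2, 24 bases: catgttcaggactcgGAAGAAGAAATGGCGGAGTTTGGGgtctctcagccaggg
RAPGEF2, 18 bases: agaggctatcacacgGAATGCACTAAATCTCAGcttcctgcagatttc
AP1G1: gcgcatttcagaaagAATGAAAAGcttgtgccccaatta
MAP4K4: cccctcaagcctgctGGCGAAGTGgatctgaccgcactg
CSNK1G3: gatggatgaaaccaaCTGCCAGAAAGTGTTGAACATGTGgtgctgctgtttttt
SUPT5H: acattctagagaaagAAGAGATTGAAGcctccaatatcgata
CTNND1: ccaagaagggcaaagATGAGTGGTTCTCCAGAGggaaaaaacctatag
OCRL: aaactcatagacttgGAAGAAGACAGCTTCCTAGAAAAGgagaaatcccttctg
BICD1: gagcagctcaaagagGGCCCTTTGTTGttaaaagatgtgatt

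On GRCh38, the TEAD1 microexon lies at chr11:12878889-12878900, plus strand, and that of SNX14 at chr6:85538838-85538864, minus strand. The AFDN microexon lies at chr6:167913403-167913423, plus strand, that of MON2 at chr12:62566014-62566031, plus strand and that of KIF3A at chr5:132706451-132706459, minus strand. RAPGEF2 has a 24-base microexon at chr4:159344036-159344059, plus strand, and an 18-base one at chr4:159243774-159243791, plus strand. The AP1G1 microexon lies at chr16:71767877-71767885, minus strand, that of MAP4K4 at chr2:101868029-101868037, plus strand and that of CSNK1G3 at chr5:123605339-123605362, plus strand. Those of SUPT5H, CTNND1, OCRL and BICD1 lie at chr19:39458294-39458305, plus strand, at chr11:57806461-57806478, plus strand, at chrX:129584344-129584367, plus strand and at chr12:32107662-32107673, plus strand. Over all 185 matched microexons, the median GC content was 45% and the median purine content 59.3%.

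Lengths ran from 3 to 27 bases. Microexons of 27 bases were the most frequent, with 36, followed by 27 of 24 bases, 21 of 21 bases, 17 of 18 bases and 16 of 12 bases. A length divisible by 3, which keeps the reading frame, was held by 152 of the 235, or 64.7%, against 41.1% of the longer exons in the tables. There were 70 microexons of 15 bases or fewer and 17 of 6 bases or fewer.

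The direction of change differed between the tables. After SF3B5 depletion most had a lower PSI, whereas after RBM39, SRSF2 and SRSF7 depletion most were included more often. In the authors' deposited table for RBM39, 17 of 75 microexons had a lower PSI than in siNT2, or 22.7%, while 89.3% of all listed exons of that table were lower. For SRSF2, 11 of 42 were lower than in siNT1, or 26.2%, against 73.5% of all listed exons. For SRSF7 the count was 9 of 32, or 28.1%, against 78.5% of all listed exons. For SRSF1 it was 18 of 44, or 40.9%, against 62.6%, and for SRSF3 it was 26 of 59, or 44.1%, against 80.9%. The SF3B5 table held the most microexons but also the most exons, and microexons were 1.42% of these, the lowest share of any table. Of its 139 microexons 124 were lower, or 89.2%, against 97.9% of all its exons. With MLN8237, 2 of 7 were lower than with DMSO, or 28.6%, against 48.8% of all its exons.

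**Figure D1:**
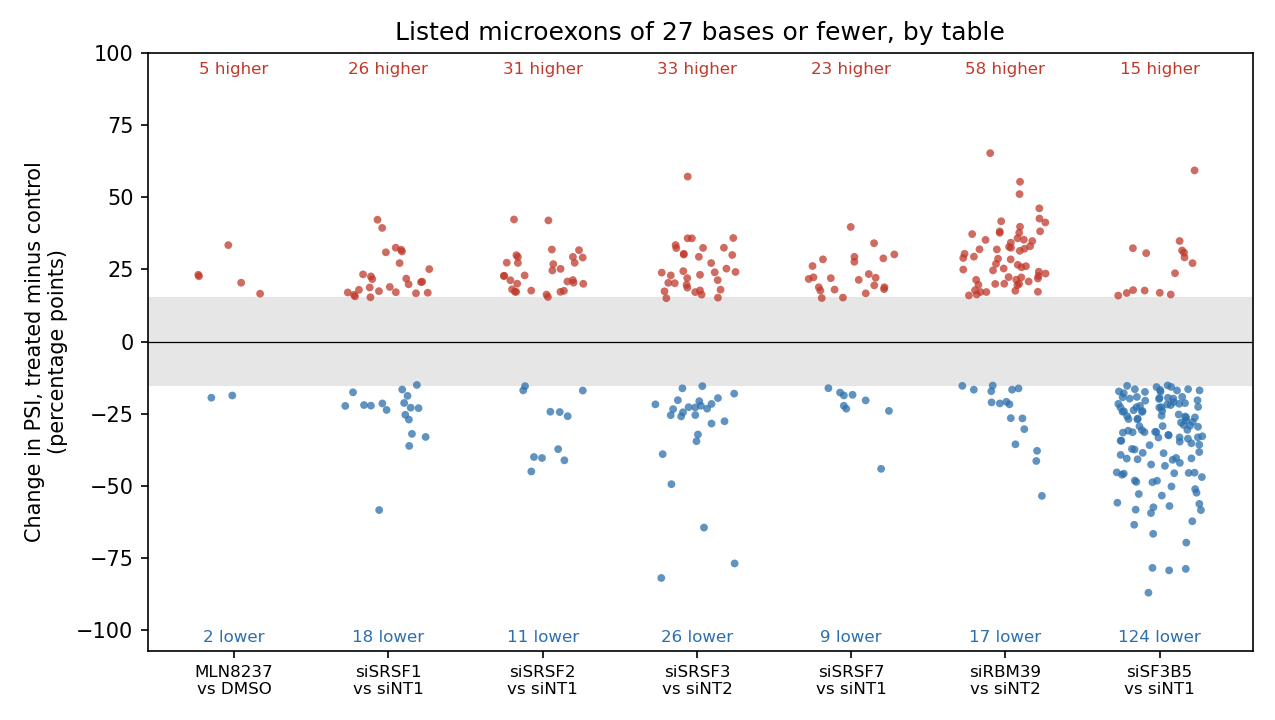
Change in PSI of every listed microexon, in percentage points, by table, with each point 1 microexon and red for higher and blue for lower PSI in treated cells. The grey band is the range under 15 points in which no event is listed. Points lie mostly above the band for RBM39 (58 higher, 17 lower) and mostly below it for SF3B5 (15 higher, 124 lower).

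Large changes were frequent among microexons in the RBM39 and SF3B5 tables. A change of at least 25 points was held by 42 of 75 microexons after RBM39 depletion, or 56.0%, against 38.9% of all listed exons, and by 91 of 139 after SF3B5 depletion, or 65.5%, against 54.3%. For SRSF2 it was 19 of 42, or 45.2%, against 40.4%. For the other factors the share of microexons lay nearer to or below that of all exons. It was 26 of 59 for SRSF3, or 44.1%, against 45.2%, 14 of 44 for SRSF1, or 31.8%, against 36.1%, and 9 of 32 for SRSF7, or 28.1%, against 29.5%. With MLN8237 it was 1 of 7, or 14.3%, against 9.09%.

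Where an exon starts limits where it can go, since an event was listed only past a change of about 15 points (the smallest was 15.005). Microexons started from lower inclusion than longer exons. Their median PSI in siNT2 was 31.7% in the RBM39 table, against 84.7% for longer exons, and 46.8% in the SRSF3 table, against 89.7%. In siNT1 it was 34.6% in the SRSF2 table, against 80% for longer exons, 37.3% against 79.0% in the SRSF7 table and 39.6% against 70.4% in the SRSF1 table. In the SF3B5 table both were high, with a median of 89.2% for microexons and 97% for longer exons. Above a control PSI of 80%, all listed microexons were lower in treated cells in the 5 tables that hold any, and the MLN8237 and SRSF7 tables hold none. Longer exons with such a control PSI were lower in 93.9% of cases with MLN8237 and in 95.8% or more in each depletion table. Below 20%, all were higher, except 1 in the SRSF3 table and 1 in the RBM39 table.

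Exons with a control PSI from 20% to 80% could have moved either way. Starting points inside this range were not matched between microexons and longer exons. How far they shape the shares below was not tested. After RBM39 depletion 5 of 35 such microexons were lower, or 14.3%, against 913 of 1063 longer exons, or 85.9%. After SRSF2 depletion 7 of 26 microexons were lower, or 26.9%, against 510 of 840 longer exons, or 60.7%. For SRSF3 the shares were 14 of 36, or 38.9%, and 631 of 947, or 66.6%. For SRSF7 they were 9 of 23, or 39.1%, and 421 of 616, or 68.3%. For SRSF1 they lay closer together, at 11 of 25, or 44%, and 402 of 792, or 50.8%. For SF3B5 they were nearly equal, at 41 of 44, or 93.2%, and 1199 of 1274, or 94.1%. With MLN8237 the order was the other way round, with 2 of 5 microexons lower, or 40%, and 24 of 69 longer exons, or 34.8%. These shares count exons of 1 comparison each, which are not replicates, and they were not tested.

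**Figure D2:**
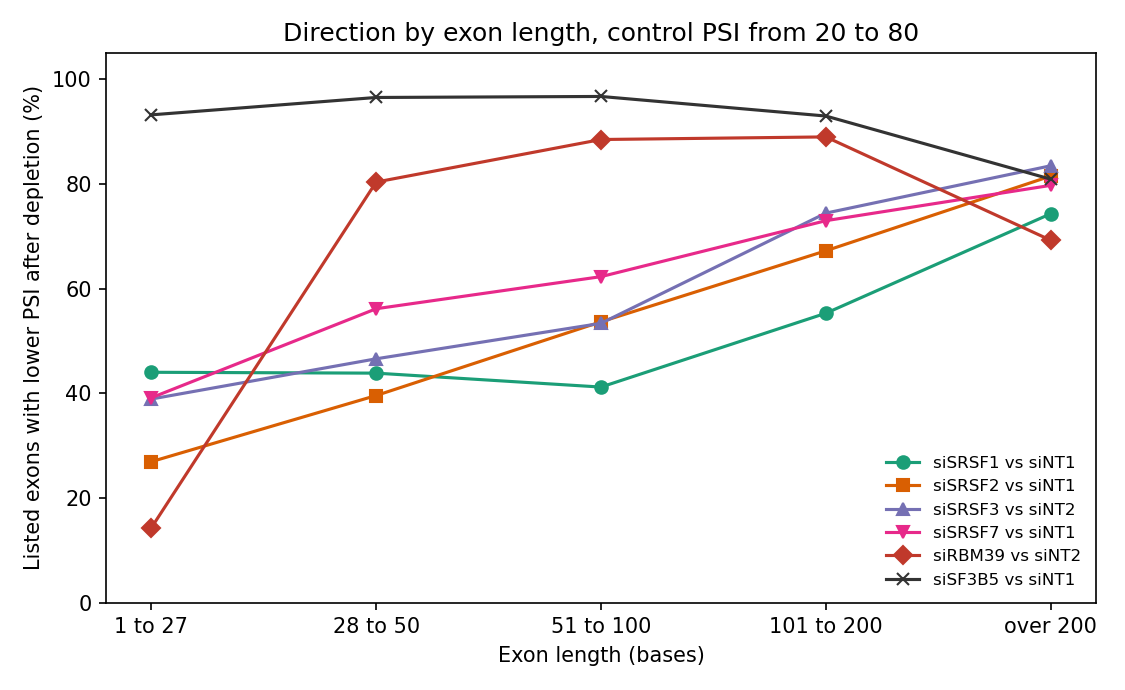
Share of listed exons with lower PSI after each depletion, in percent, by exon length class, among exons with a control PSI from 20% to 80%. The RBM39 line lies at 14.3% for microexons and at 80.3% for exons of 28 to 50 bases, while the SF3B5 line stays above 80% at every length.

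The step by length was steepest for RBM39. Among exons with a control PSI from 20% to 80%, 80.3% of those with 28 to 50 bases were lower after its depletion, as were 88.5% of those up to 100 bases and 89% of those up to 200. At the limit itself, over all tables and control values, 54.1% of 61 entries of 27 bases were lower, and 66.7% of 9 entries of 28 bases. Entries of 24 bases were lower in 49.2% of 59 cases, and entries of 30 bases in 80.4% of 51. These shares pool tables that lean different ways, in proportions that differ by length. With a limit of 30 bases, the SF3B5 table alone held 183 entries, of which 168 were lower. The pooled shares are therefore not read as an effect of length. The 14 entries of 25 bases, whose frame is not kept, had a median control PSI of 93.4%, and 85.7% were lower.

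RBM39 depletion gave the largest gains in inclusion. The 24-base microexon of CSNK1G3, a casein kinase 1 gamma isoform, stood at 82.9% in siRBM39 cells, against 17.6% in siNT2. That of CACNA2D1, an auxiliary subunit of voltage-gated calcium channels, stood at 55.6%, against 4.52%. CTAGE5, which acts in cargo export from the endoplasmic reticulum and belongs to a family of similar genes, so that its reads are uncertain, had 80.2%, against 24.8%. A 6-base microexon of RUNDC1 reached 93.8%, against 47.6%, and a 15-base one of ADGRL3, an adhesion receptor of the latrophilin family, 60.6%, against 17.9%. All of these had a low or intermediate PSI in siNT2 and a majority form with the microexon in siRBM39 cells.

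Genes of the cytoskeleton and of adhesion followed. The microexon of KIF21A, a kinesin, stood at 81.6% in siRBM39 cells, against 40.4% in siNT2, and that of MACF1, which links actin to microtubules, at 56.4%, against 21.2%. ABI1, a subunit of the WAVE complex that drives actin branching, had 44%, against 11.5%. The receptor phosphatase PTPRS had 94.9%, against 56.6%, and TENM3, a teneurin adhesion receptor, 64.1%, against 26%. COL4A5, a chain of type IV collagen, had 80.1%, against 42.4%. UBE2D3, a ubiquitin-conjugating enzyme, and PRKACB, a catalytic subunit of protein kinase A, had microexons almost unused in siNT2. UBE2D3 had 29.8% in siRBM39 cells, against 0.84%, and PRKACB 18.1%, against 0.85%.

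The 17 microexons that were lower in siRBM39 cells started from a higher median inclusion. Their median PSI in siNT2 was 83.1%, against 20.8% for the 58 that were higher. Longer exons of the same table split alike, with 86.7% for those lower and 31.0% for those higher. Since the starting point limits the direction that can be listed, this split is not read as a trait of microexons. The 10-base microexon of HNRNPU, a nuclear matrix RNA-binding protein with processed copies that make its reads uncertain, had 29%, against 82.4% in siNT2. The 8-base microexon of FLOT1, the membrane raft protein flotillin, had 41.5%, against 82.8%. IL17RB, a cytokine receptor, had 51.1%, against 88.9%, and GRIPAP1, an endosomal protein, 63.1%, against 93.4%. Of 58 microexons divisible by 3, 51 were higher, while of the 17 other microexons 7 were higher. The median PSI in siNT2 was 30.9% for the microexons divisible by 3 and 74.0% for the others, so that their starting points differed too. After SF3B5 depletion 8 of 86 microexons divisible by 3 were higher, and 7 of the 53 others. The counts were 26 of 33 and 5 of 9 for SRSF2, 25 of 40 and 8 of 19 for SRSF3, and 21 of 28 and 2 of 4 for SRSF7. Longer exons were not split by frame.

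After SF3B5 depletion most listed microexons were skipped more often, and most had a high PSI in siNT1. Of its 139 microexons, 83 had a PSI over 80% in siNT1. The 23-base microexon of RPL41, a ribosomal protein gene with many processed copies, so that its reads are uncertain, had 3.23% in siSF3B5 cells, against 90.2% in siNT1. ERMARD had 14.4%, against 93.7%, and BRCC3, a deubiquitinase of the BRCA1-A complex, 15.7%, against 94.4%. TRIM27, a ubiquitin ligase, had 20.6%, against 98.9%. BBS9, a subunit of the ciliary BBSome, had 20.3%, against 89.9%, and TLE1, a transcriptional corepressor, 23.4%, against 90%. ARHGEF11, an exchange factor for RhoA, had 35.3%, against 97.5%, and IMMT, which shapes mitochondrial cristae, 48.9%, against 99.1%. In each of these genes the form without the microexon was the minor one in siNT1 and the main one in siSF3B5 cells.

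The SF3B5 table held several sets of related genes. The TNRC6 proteins, partners of Argonaute in microRNA silencing, each had a 22-base microexon. That of TNRC6C had 70.9% in siSF3B5 cells, against 100% in siNT1, that of TNRC6B 80.9%, against 100%, and that of TNRC6A 79.4%, against 95.1%. Among the formins, which nucleate actin filaments, DIAPH1 had 68.1%, against 98.9%, at a 9-base microexon and 63.8%, against 90.6%, at a 27-base one, and DIAPH2 had 60.9%, against 86.9%. The cytohesins, exchange factors for ARF GTPases, differed. A 3-base microexon of CYTH1 had 69.2%, against 90.1%, and a 3-base microexon of CYTH2 had 81.4%, against 63.7%.

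Only 15 microexons were higher in siSF3B5 cells, and 12 of them had a PSI under 20% in siNT1. A 15-base microexon of SLC12A7, a potassium and chloride cotransporter, was listed at 34.9%, against 0.0% in siNT1. A 9-base one of CCNL2, a cyclin of nuclear speckles, had 53.1%, against 20.7%. PHF21A, a subunit of the LSD1 demethylase complex, had 29.6%, against 5.93%. PKD1, which encodes polycystin-1, had 36.5%, against 5.67%, and has near-identical copies elsewhere in the genome, so that its value is uncertain.

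RBM39 and SF3B5 depletion, which have no control group in common, shared 23 microexons, or 30.7% of the RBM39 list and 16.5% of the SF3B5 list. They shared 1380 longer exons, or 51.3% of the longer exons of the RBM39 table and 14.3% of those of the SF3B5 table. Of the 23 microexons, 14 were higher in siRBM39 cells and lower in siSF3B5 cells, 8 were lower in both and 1 was higher in both. Among the longer exons the same opposite pattern was held by 34 of 1380, or 2.46%. With a control PSI from 20% to 80% in both tables, 13 of 17 microexons held this pattern, or 76.5%. Among longer exons of that range 31 of 483 did, or 6.42%. Each whole list leaned the same way. Of all listed microexons, 58 of 75 were higher after RBM39 depletion and 124 of 139 lower after SF3B5 depletion. In the 20% to 80% range, 30 of 35 were higher and 41 of 44 lower. The opposite pattern is therefore not read as something beyond each table's own direction.

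**Figure D3:**
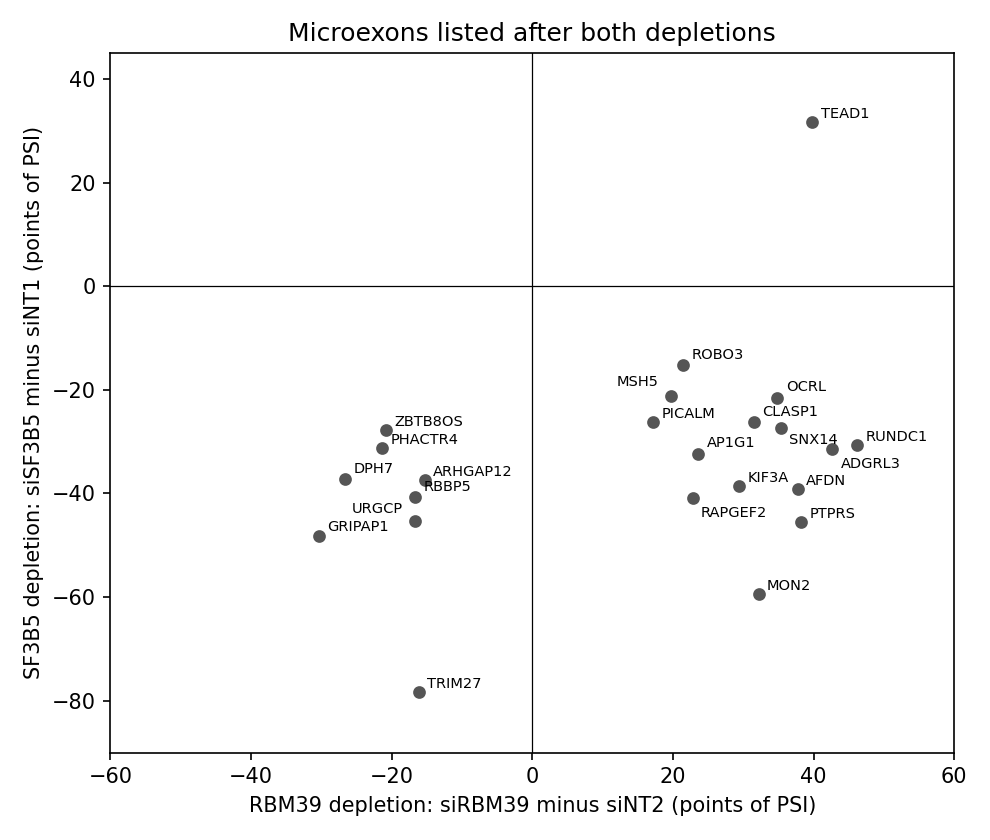
Change in PSI after RBM39 depletion (horizontal, points) and after SF3B5 depletion (vertical, points) for the 23 microexons listed in both tables, with each point 1 microexon. Of these, 14 lie at the lower right, 8 at the lower left and TEAD1 alone at the upper right.

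The opposite group held several genes of membrane traffic. The 18-base microexon of MON2, a scaffold of traffic between endosomes and the Golgi, had 96.4% in siRBM39 cells, against 64.2% in siNT2. In siSF3B5 cells it had 6.8%, against 66.2% in siNT1. The 9-base microexon of AP1G1, a subunit of the clathrin adaptor AP-1, had 76.2% in siRBM39 cells, against 52.6% in siNT2, and 14.1% in siSF3B5 cells, against 46.4% in siNT1. For PICALM, which recruits clathrin to membranes, the values were 51.6%, against 34.4%, after RBM39 depletion, and 3.96%, against 30.2%, after SF3B5 depletion. OCRL, a phosphatase of membrane phosphoinositides, had 70%, against 35.1%, in the first case and 17.1%, against 38.6%, in the second.

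Adhesion, motor and receptor genes belonged to the same group. AFDN, which joins nectins to actin at cell junctions, had 74.7% in siRBM39 cells, against 36.9% in siNT2, and 5.21% in siSF3B5 cells, against 44.4% in siNT1. The kinesin-2 motor subunit KIF3A had 91.9%, against 62.4%, after RBM39 depletion, and 31.9%, against 70.5%, after SF3B5 depletion. PTPRS had 9.60% in siSF3B5 cells, against 55.1% in siNT1, and RUNDC1 9.72%, against 40.4%. ADGRL3 was listed at 0.0% in siSF3B5 cells, against 31.4% in siNT1. CLASP1, which stabilises microtubule plus ends, had 70.6%, against 39.1%, in siRBM39 cells at its 24-base microexon, and 12.3%, against 38.6%, in siSF3B5 cells. The remaining opposite members were SNX14, RAPGEF2, MSH5 and ROBO3.

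After SRSF1 depletion the directions were mixed. A 5-base microexon of SEPT7, a septin with pseudogene copies that make its reads uncertain, had 33.6% in siSRSF1 cells, against 91.9% in siNT1. The 18-base microexon of RAPGEF2, an exchange factor for the GTPase RAP1, had 17%, against 53.2%. PRKD1, protein kinase D1, had 31.8%, against 64.8%, and the cargo motor MYO5A 13.1%, against 45.1%. The actin cross-linker FLNA had 59.8%, against 85.2%, and SPTAN1, non-erythroid alpha spectrin, 75.7%, against 97%. At the high end OCRL had 80.8%, against 38.6%, and MAX, the partner of MYC, 73.3%, against 40.7%. The motors KIF21A and MYO6 were higher, with 49.7%, against 34.3%, and 23.9%, against 6.88%. FIP1L1, a cleavage and polyadenylation factor, had 62.6%, against 30.8%. Of 35 microexons divisible by 3, 24 were higher, and of the 9 others 2 were higher. Their median PSI in siNT1 was 34.9% and 72.6%.

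After SRSF2 depletion the gains were led by AFDN, with 86.8% in siSRSF2 cells, against 44.4% in siNT1, and by MACF1, with 61.3%, against 19.3%. The nuclear corepressor NCOR1 had 64.8%, against 32.9%, and the kinase MARK3 83.9%, against 52.2%. EXOC6B, a subunit of the exocyst that tethers secretory vesicles, had 35%, against 5.02%. The actin-based motor MYO6 had 33.7%, against 6.88%, and MED23, a subunit of Mediator, 41.6%, against 12.2%. At the low end PRKD1 had 19.9%, against 64.8%, KIF3A 29.4%, against 70.5%, and SGSM2, a RAB GTPase-activating protein, 38.6%, against 78.9%. DNM1, the vesicle-severing GTPase dynamin 1, had 2 different microexons of 12 bases. One was at 50% in siSRSF2 cells, against 89.9% in siNT1, and the other, listed for SRSF7, at 70.2% in siSRSF7 cells, against 42.5% in siNT1.

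SRSF3 depletion gave the largest single losses among the SR proteins. The 12-base microexon of SUPT5H, a subunit of the elongation factor DSIF, had 13.2% in siSRSF3 cells, against 95.1% in siNT2. PRR14, which ties heterochromatin to the nuclear lamina, had 11%, against 87.8%, SGSM2 23.4%, against 87.8%, and ELMOD1 29.5%, against 78.8%. SH3GLB2, an endophilin-like protein, had 50.6%, against 89.6%, and TFEB, a transcription factor of lysosomal genes, 67.8%, against 100%. The largest gain was in CTNND1, the cadherin partner p120 catenin, with 61.7%, against 4.52%. A 3-base microexon of NSFL1C, a cofactor of the ATPase VCP, had 64.9%, against 29%. The kinase MAP4K4 had 94.1%, against 58.3%, the related kinase TNIK 76.8%, against 49.6%, and ARRB1, beta-arrestin 1, 68.2%, against 38.8%.

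SRSF7 depletion had the fewest microexons among the depletions, but also the fewest listed exons, and microexons were 2.29% of these. SNX14, a sorting nexin of the endoplasmic reticulum, had 74.6% in siSRSF7 cells, against 34.9% in siNT1. The guidance ligand SLIT2 had 66.4%, against 32.3%, and CADPS2, which primes dense-core vesicles, 49.7%, against 19.5%. ROBO1, a receptor for SLIT ligands, had 96.4%, against 73%. HOOK3, an activating adaptor of dynein, had 31%, against 11.5%, and VTI1A, a SNARE protein, 17.4%, against 2.32%. MON2 was at the low end, with 22.1%, against 66.2%. TRAPPC13, a subunit of a vesicle tethering complex, had 35.9%, against 56.2%, and VPS29, a subunit of retromer, 60.2%, against 78.7%.

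Aurora-A inhibition with MLN8237 listed 7 microexons and all had a length divisible by 3. ATL1, the membrane-fusing GTPase atlastin 1, had 26.9% with MLN8237, against 3.75% with DMSO, and MGAT5B, a Golgi glycosyltransferase, 29.3%, against 6.64%. IFFO1, an intermediate filament family protein, had 57.4%, against 37%, and CADPS2 had 49.3%, against 32.7%. BICD1, which couples dynein to cargo, had 14.9%, against 34.3%, and COL4A5 had 26.2%, against 44.9%. None of these 6 moved by 25 points or more.

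Of these, BICD1 and MGAT5B stood in no depletion table. ATL1 also stood in the RBM39 table, at 39.6% in siRBM39 cells, against 13.9% in siNT2. CADPS2 had 51.6% in siSRSF3 cells, against 34.4% in siNT2, but 12.7% in siRBM39 cells, against the same control value. COL4A5 was lower with MLN8237 and had 27.1% in siSRSF7 cells, against 50.4% in siNT1, while it was higher in siRBM39 cells. IFFO1 had 73.2% in siSRSF3 cells, against 51.9% in siNT2, and 36.6% in siSF3B5 cells, against 56.3% in siNT1. No microexon of the MLN8237 table was listed for SRSF1 or SRSF2. Of its 114 longer exons, 16 were listed for SRSF1 and 13 for SRSF2. With only 7 microexons, their absence there is not read as a difference from longer exons.

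Many microexons stood in several tables. Of the 235, 91 stood in 2 or more tables, or 38.7%, against 28.9% of all listed exons, and 49 stood in 3 or more, or 20.9%, against 11% of longer exons. There were 144 in 1 table, 42 in 2, 33 in 3, 11 in 4, 3 in 5 and 2 in 6. Of those in 1 table, 85 stood in the SF3B5 table and 23 in the RBM39 table. The siNT1 group served 4 of the tables and the siNT2 group 2, so tables with the same control are not independent of each other. Values of such tables are set side by side here and their overlap is not read.

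**Figure D4:**
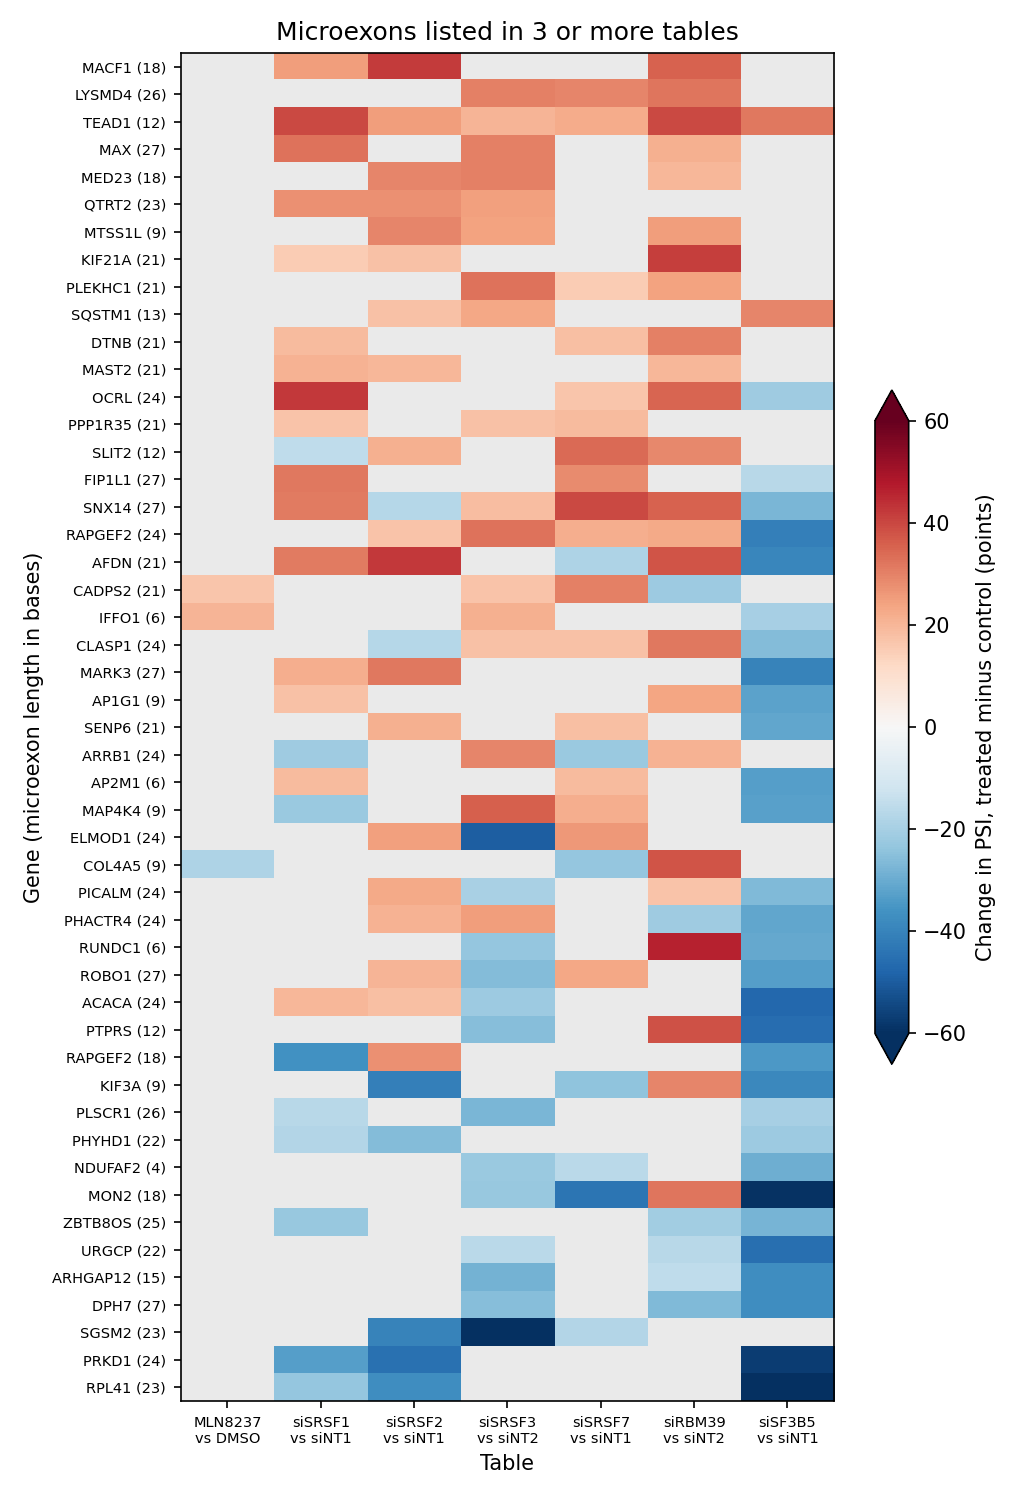
Change in PSI (points, red higher and blue lower in treated cells, grey not listed) of the 49 microexons listed in 3 or more tables, with 1 row for each and the length in bases in brackets. Filled cells of the SF3B5 column are mostly blue and those of the RBM39 column mostly red.

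TEAD1 and SNX14 stood in 6 tables each. The 12-base microexon of TEAD1, a transcription factor that works with YAP and TAZ, was higher after every depletion. It had 42.2% in siSRSF1 cells, 28.1% in siSRSF2 cells, 25% in siSRSF7 cells and 34.4% in siSF3B5 cells, against 2.84% in siNT1. It had 33.9% in siSRSF3 cells and 53.3% in siRBM39 cells, against 13.5% in siNT2. The 27-base microexon of SNX14 went both ways. It had 66.1% in siSRSF1 cells and 74.6% in siSRSF7 cells, but 17.9% in siSRSF2 cells and 7.58% in siSF3B5 cells, against 34.9% in siNT1. It had 65.5% in siSRSF3 cells and 82.1% in siRBM39 cells, against 46.8% in siNT2.

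AFDN, CLASP1 and the 24-base microexon of RAPGEF2 stood in 5 tables each. AFDN had 75.4% in siSRSF1 cells and 25.8% in siSRSF7 cells, against 44.4% in siNT1, beside the values given for the other depletions. RAPGEF2 had 82.1% in siSRSF2 cells, 86.9% in siSRSF7 cells and 24% in siSF3B5 cells, against 64.9% in siNT1. It had 92.1% in siSRSF3 cells and 82.4% in siRBM39 cells, against 59.6% in siNT2. The 18-base microexon of the same gene behaved differently, with 80.4% in siSRSF2 cells, 17% in siSRSF1 cells and 18.8% in siSF3B5 cells, against 53.2% in siNT1. MAP4K4 had 26.8% in siSRSF1 cells, 70.7% in siSRSF7 cells and 16.2% in siSF3B5 cells, against 49% in siNT1.

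**Figure D5:**
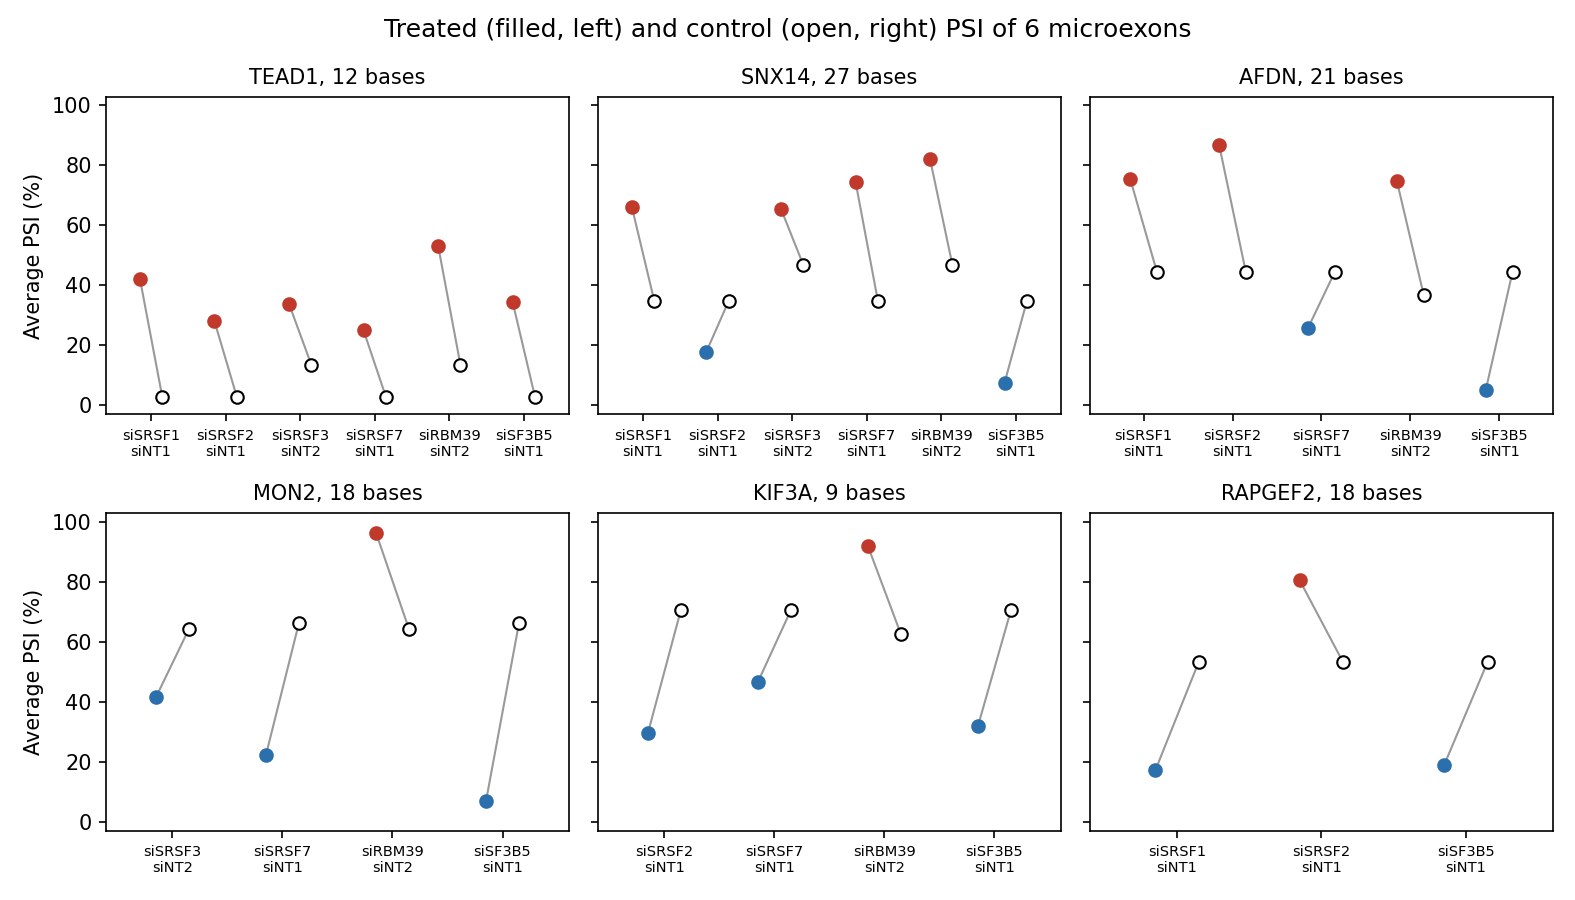
Mean PSI in percent of 6 microexons, with the treated group as a filled point on the left and its control as an open point on the right of each pair, red where higher and blue where lower in treated cells. The TEAD1 pairs all run upward to the treated group, while the other 5 genes hold pairs of both directions.

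MON2, beside its values for SRSF7, RBM39 and SF3B5, had 41.4% in siSRSF3 cells, against 64.2% in siNT2. KIF3A had 46.5% in siSRSF7 cells, against 70.5% in siNT1. Of the 4 tables that list KIF3A, the RBM39 table alone had the higher value in depleted cells. PRKD1 was lower in the 3 tables that list it and had 7.88% in siSF3B5 cells, against 64.8% in siNT1. ARHGAP12, a GTPase-activating protein, and DPH7, an enzyme of diphthamide synthesis, were lower after SRSF3, RBM39 and SF3B5 depletion. The ARHGAP12 microexon had 24.9% in siSRSF3 cells and 37.9% in siRBM39 cells, against 53.2% in siNT2, and 10.9% in siSF3B5 cells, against 48.3% in siNT1.

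Gene lists drawn up from general knowledge of microexons and of cell biology were counted next. From a list of 155 genes known for neural microexons, 26 genes contributed 31 microexons. In the RBM39 table all 16 of these were higher, with a median change of 29 points, against 58 of 75 and 24.2 points for all its microexons. After SF3B5 depletion 10 of 11 were lower, close to the 124 of 139 for all its microexons, with a median of -40.5 points, against -29.1 points. For SRSF2 8 were higher and 2 lower, against 31 higher and 11 lower of all its microexons. For SRSF1 6 were higher and 4 lower, against 26 and 18, and for SRSF3 6 were higher and 5 lower, against 33 and 26. For SRSF7 5 were higher and 1 lower, against 23 and 9. The MLN8237 table held none.

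A list of 93 genes of the cytoskeleton, adhesion and motors, which shares members with the first, had 9 higher and 0 lower microexons after RBM39 depletion, where 77.3% of all microexons were higher. It had 0 higher and 6 lower after SF3B5 depletion, where 89.2% of all microexons were lower. It had 4 higher and 3 lower after SRSF1 depletion, with 59.1% of all its microexons higher. The list left out CORO1C, an actin-binding coronin, which was higher after SF3B5 depletion. Its single directions are therefore not read as a trait of such genes. A list of 112 genes of vesicle traffic and endocytosis had 5 higher and 0 lower after RBM39 depletion and 0 higher and 8 lower after SF3B5 depletion, which lies near the share of all microexons in the SF3B5 table. Among these 8, AP2M1, a subunit of the clathrin adaptor AP-2, had 11.9% in siSF3B5 cells, against 45.1% in siNT1, and it had 64% in both siSRSF1 and siSRSF7 cells, against the same control value. The list of vesicle traffic left out CADPS2 and GRIPAP1, which were both lower after RBM39 depletion. The directions of that list are not read as a trait of traffic genes either. From 69 regulators of small GTPases, 5 microexons were lower and 0 higher after SF3B5 depletion, again near the table's share. There were 1 higher and 1 lower after RBM39 and after SRSF3 depletion, 2 higher after SRSF2 depletion, 1 higher after SRSF7 depletion and 1 lower after SRSF1 depletion. These counts depend on which genes the list holds. It left out CYTH2, which was higher after SF3B5 depletion, and SGSM2, which was lower after SRSF2, SRSF3 and SRSF7 depletion. The directions are therefore not read as a trait of regulators of small GTPases. The list of 99 transcription and chromatin genes had 5 entries in 3 genes, MED23, NCOR1 and PHF21A, all higher. Of all microexons, 73.8% were higher after SRSF2 depletion, 55.9% after SRSF3, 77.3% after RBM39 and 10.8% after SF3B5 depletion. This list left out SUPT5H, TFEB, TLE1 and PRR14, which were lower wherever listed, and TEAD1 and MAX, which were higher wherever listed. Its single direction is therefore not read as a trait of transcription and chromatin genes. The list of 61 genes of translation, RNA processing and decay had 5 entries in 4 genes, 2 higher for R3HDM2 and 3 lower for the TNRC6 genes.

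The 17 microexons of 6 bases or fewer add at most a pair of residues where they keep the frame. Those of 3 bases lay in CLASP1, CYTH1, CYTH2, NSFL1C, PHB2 and C14orf166, of which PHB2 has pseudogene copies and is uncertain. The 3-base microexon of CLASP1 had 47.7% in siSF3B5 cells, against 100% in siNT1, and that of NSFL1C had 7.03%, against 29.8%. Members of 4 bases lay in NDUFAF2, an assembly factor of respiratory complex I, and CORO1C, an actin-binding coronin. That of NDUFAF2 had 14.8% in siSRSF3 cells, against 37% in siNT2. It had 20% in siSRSF7 cells and 6.59% in siSF3B5 cells, against 36.1% in siNT1. A 6-base microexon of PSAP, the precursor of the saposins of the lysosome, had 40.1% in siSRSF1 cells, against 16.8% in siNT1, and 50.1% in siRBM39 cells, against 17.3% in siNT2. The authors' tables mark 35 microexons as MIC, none longer than 15 bases, and 24 of their 57 entries were lower.

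Microexon inclusion could also be compared between the control groups. The labels place siNT1 and siNT2 in different sets of samples, so that set and control cannot be told apart. A microexon carried the same siNT1 value in every table that uses siNT1. For 66 microexons both a siNT2 and a siNT1 value were listed, and they differed by a median of 3.96 points in either direction, with siNT2 higher for 41 and siNT1 higher for 25. No microexon differed by over 15 points between siNT1 and siNT2. The largest such difference was 14.9 points, for CADPS2, with 34.4% in siNT2 and 19.5% in siNT1. These 66 were listed for a change against their controls, and 2 control groups of 2 samples do not measure the spread within a group. For CADPS2, the change in siSRSF7 cells was 30.2 points, against that gap of 14.9. SNX14 and TNIK differed by 11.9 and 12.2 points, both higher in siNT2. DMSO could lie further from the siRNA controls, which belong to other sets. IFFO1 had 37% in DMSO, against 56.3% in siNT1 and 51.9% in siNT2. COL4A5 lay closer, with 44.9% in DMSO, against 50.4% in siNT1 and 42.4% in siNT2.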

How the data were processed

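Stranded mRNA libraries of HEK293T cells were sequenced by the authors, per the labels' protocols, with 10 groups of 2 samples. The submitters' processing notes name cutadapt, Bowtie and the hg38 build, with versions not given in the sources used here. In all, the authors deposited 7 tables of splicing events with the average PSI of the treated and of the control group as percent values, the difference in percentage points and the event length, per the file headers. The counting and listing rules and the read depth per event are unknown here.

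Entries with an exon identifier and a length from 1 to 27 bases were kept. Change is the treated minus the control average. Shares of lower PSI were set beside the same share over all listed exons of the table and over longer exons with a control PSI from 20% to 80%. No chance test was made, since group averages carry no spread between samples. Exons were placed by symbol and length in GENCODE 29 transcripts (229 symbols matched as given); 39 microexons had no exon of their length, 9 had several, 1 gene had no symbol and 1 had several, and these have no position here. Intervals used to judge the alternatives are exact binomial ones at 95%, and cover counting of exons only.

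The members, the gene lists and the rules were chosen with earlier results of these data known. The genes named come from all microexons of the MLN8237 table, the 10 highest and 10 lowest of each depletion table, those in 3 or more tables, those of the gene lists and those of 6 bases or fewer. IMMT, MSH5, PRKACB, ROBO3 and UBE2D3 were named after their values were seen. Calculations used Python 3.11.15, pandas 2.3.3, numpy 2.4.6 and scipy 1.17.1, plots matplotlib 3.10.9, and the counting steps were tested on simulated tables. Alternatives were a stricter change of 25 points, length limits of 15 and 30 bases, the control range from 20% to 80%, 1 microexon per gene, matching by gene and length, siNT1 tables alone, and omission of entries marked MIC, the last chosen after the data were seen. A few results that the naming rule selects are not reported here.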

Additional observations from a re-analysis of the deposited data

How the results depend on the processing

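Most shares of lower microexons stayed within the exact binomial interval of the value given. With a control PSI from 20% to 80%, MLN8237 microexons had a higher share of lower entries than longer exons (40% and 34.8%), while over all control values their share lay below that of all exons. With a change of at least 25 points, MLN8237 kept 1 microexon and 0.0% lower, and SRSF7 had 11.1% lower (1 of 9). With a limit of 15 bases, RBM39 had 13.8% lower (4 of 29) and SF3B5 77.8% (28 of 36). Microexons in 2 or more tables numbered 37 at 25 points, 32 at 15 bases and 46 over the siNT1 tables alone, against 91, and these alternatives admit fewer entries by construction. The other 46 recomputed values stayed within the interval of the one given or, for counts, within a set factor of it. The intervals are wide, so such values need not be close. In the 20% to 80% range SRSF7 had 39.1% lower, against 28.1%. No paired analysis was possible because the tables hold group averages without values per sample, and for the same reason no replicate could be left out. The share of microexons with 1 direction in all depletion tables was not run, because tables share controls. Depth per event is unknown, so it could not be weighed, and microexons near the 15-point limit may be listed or not by small shifts.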

Other observations

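A list of 38 regulators of microexon and exon splicing had 109 listed events in 22 genes, and 78 of the 90 exon entries among them were lower in treated cells, or 86.7%, close to the 87.4% of all 21103 exon entries. The MLN8237 table held none. RBFOX2, an RNA-binding regulator of neuronal and muscle exons, had the one microexon among them, of 21 bases, with 27.7% in siSRSF1 cells, against 11.4% in siNT1. The 34-base exon of PTBP2, the neuronal relative of PTBP1, is just longer than a microexon. It had 92.8% in siSRSF2 cells and 86.4% in siSF3B5 cells, but 37.2% in siSRSF1 cells and 20.3% in siSRSF7 cells, against 61.8% in siNT1. It had 86.8% in siRBM39 cells and 30.3% in siSRSF3 cells, against 68.6% in siNT2. The 57-base exon of PTBP1, a repressor of many microexons, had 53.1% in siRBM39 cells and 38.4% in siSRSF3 cells, against 77% in siNT2. It had 55.8% in siSRSF2 cells and 46.5% in siSF3B5 cells, against 74.6% in siNT1. SRRM3, a paralog of SRRM4, had 35.3% in siRBM39 cells at a 79-base exon, against 60.4% in siNT2. Whether any of these exons bears on microexon inclusion was not tested.

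In the RBM39 table the matched microexons had a median GC content of 44.4% for the 48 that were higher and 45.5% for the 15 that were lower, and a median purine content of 58.3% and 53.8%. In the SRSF1 table the median GC content was 44.4% for 17 that were higher and 51.2% for 16 that were lower. In the SF3B5 table it was 50% for 9 that were higher and 44.4% for 109 that were lower.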
